A study of Setaria viridis with 5 samples.

Results

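Of the 35214 genes measured in young inflorescences of the grass Setaria viridis, 22 formed the set described here. They were expressed in wild-type primordia and lower, by a set margin, in both bsl1 mutant libraries than in all 3 wild-type libraries. They were chosen by their own values in these libraries. A gene was a member when it had at least 5 CPM (its fragments per 1e+06 fragments of the library) in each wild-type library and its lowest wild-type CPM exceeded its highest bsl1 CPM by at least 25%. The ratio of those 2 values, lowest wild-type over highest bsl1, is called the gap here. The members were 0.163% of the 13526 genes with at least 5 CPM in every wild-type library, which are called expressed genes in what follows. Because the gap defined the set, the direction of every member was fixed by its choice and is described without a test.

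The bsl1 group had 2 libraries and the wild-type group 3. The bsl1 (bristleless1) plants came from an M2 population of S. viridis treated with the mutagen N-Nitroso-N-methylurea. The line was selfed, crossed back to the reference line A10.1 and selfed again, and homozygous F2 mutants were selfed to give the plants used. It is therefore 1 mutant line after 1 backcross, and other induced changes that it still carries cannot be told apart from the bsl1 lesion. Wild-type plants were A10.1 itself, grown together with the mutants. Each library came from a pool of about 10 inflorescence primordia dissected by hand at 15 days after sowing. Libraries of polyadenylated RNA were sequenced, and fragments were counted per gene.

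Setaria inflorescences bear spikelets, which hold the flowers, beside sterile bristles, and both arise from branch meristems of the young inflorescence. The study's title asks how brassinosteroids act on the fate of these meristems. Brassinosteroids are plant steroid hormones whose later synthesis steps use cytochrome P450 enzymes. They bind a receptor kinase at the cell surface, which leads to inhibition of a cytoplasmic kinase of the GSK3 type and allows transcription factors of the BZR type to act on their target genes. In grasses these hormones are known for effects on plant height, leaf angle and branching of the inflorescence.

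The table identifies genes by v1.1 identifiers alone and pairs none with a name, and 0 of the identifiers matched the reference gene table. No role can therefore be given to any member, and lists of hormone, meristem, floral or cell type genes could not be applied. The mutated gene and markers of other tissues were not checked for the same reason. Members are numbered from 1 to 22 by the width of the gap. Identifiers are printed for member 1, Sevir.1G044000, and for the most abundant member, Sevir.5G324700, which is member 18. The chromosome of each is read from its identifier.

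Libraries held 25393087 to 49162793 fragments. Wild-type replicate 1 stood apart from the other wild-type libraries. Over expressed genes, its CPM differed from theirs by a median of 0.227 and 0.272 on the log2 scale, while wild-type replicates 2 and 3 differed by 0.139. Its median differences from bsl1 replicates 1 and 2 were smaller, at 0.165 and 0.181. The bsl1 libraries were the closest pair, at 0.0798. Over the 22 members this order was different. The rule asked all wild-type libraries to lie above both bsl1 libraries, so the distances across genotypes alone were wide by construction. Over the members the bsl1 libraries differed by a median of 0.169 on the log2 scale and the wild-type pairs by 0.129 to 0.176. The pairs across genotypes differed by 0.612 to 0.718.

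**Figure D1:**
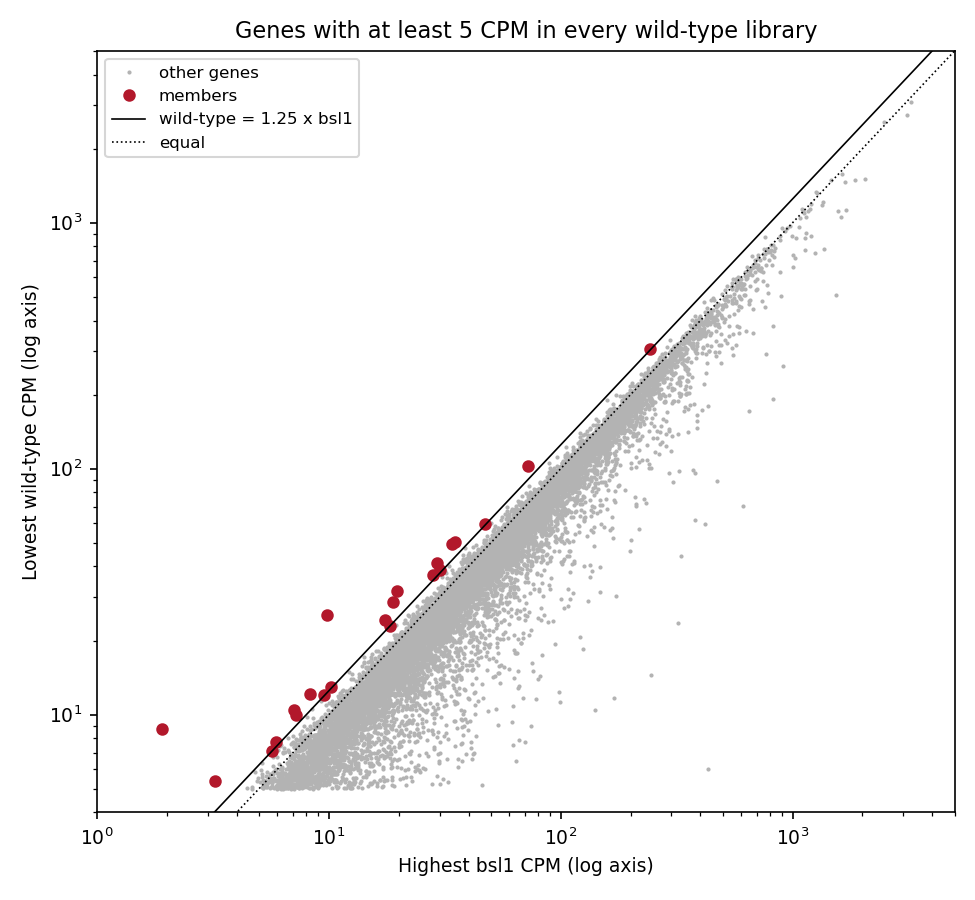
Highest bsl1 CPM (horizontal, log axis) and lowest wild-type CPM (vertical, log axis) of the 13526 expressed genes, with the 22 members in red, the solid line of a gap of 25% and the dotted line of equality. Members lie on or above the upper line, with members 1 and 2 farthest from it. The members' lowest wild-type CPM runs from 5.36 to 102, apart from member 18 at 306. Many more genes lie far below the lines than above them.

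With a minimum gap, genes on the lower side were few. Without a minimum gap, 977 expressed genes (7.22%) were lower in both bsl1 libraries than in every wild-type library. With a gap of 1.1 there were 124, with the 25% limit the 22 members, with 1.5 there were 5 and with 2 there were 2. The mirrored rule asked for at least 5 CPM in both bsl1 libraries and a lowest bsl1 CPM at least 25% above the highest wild-type CPM. It was met by 593 of 14445 genes (4.11%). Without a minimum gap the mirrored count was 2428, with 1.1 it was 1135, with 1.5 it was 278 and with 2 it was 106. Among the expressed genes, 1967 (14.5%) were higher in both bsl1 libraries than in every wild-type library. The directions were thus less unequal without a minimum gap than at the wider gaps. These counts all use CPM by library totals.

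The libraries entered this rule unequally. Bsl1 replicate 1 alone kept 36 further genes out of the set and bsl1 replicate 2 alone kept out 33. Wild-type replicate 1 alone kept out 294, wild-type replicate 2 kept out 16 and wild-type replicate 3 kept out 102. Without wild-type replicate 1 the set would therefore have held 316 genes, the 22 among them. Scaling mattered too: with TMM factors, which were 1.018 and 1.031 in bsl1 and 0.981 to 0.991 in wild-type, 39 genes met the rule, and with median-ratio factors 42 did, again including all 22.

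**Figure D2:**
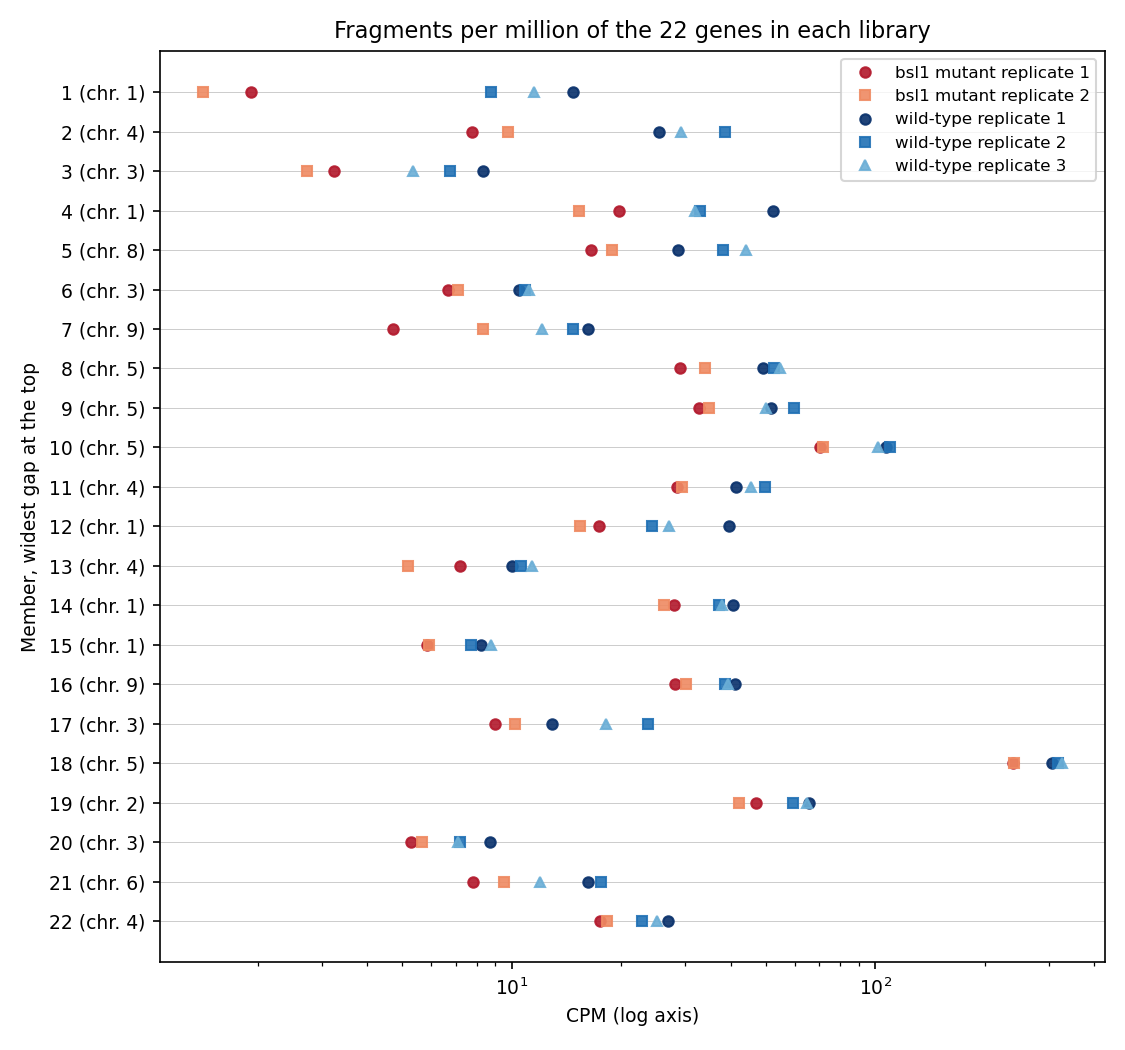
CPM (log axis) of each of the 22 members in the bsl1 libraries (red and orange) and the wild-type libraries (blues), 1 row per member with the widest gap at the top and the chromosome in brackets. In every row both bsl1 points lie left of all wild-type points, and the wild-type points of members 6, 10, 16 and 18 nearly coincide while those of members 4, 12 and 17 are spread.

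Sevir.1G044000, on chromosome 1, was the member with the widest gap. It had 1.91 and 1.41 CPM in bsl1 replicates 1 and 2, against 14.8, 8.77 and 11.5 CPM in wild-type replicates 1, 2 and 3. These values rest on 94 and 48 fragments in the bsl1 libraries and on 660, 289 and 293 in the wild-type libraries. Its mean was 1.66 ± 0.356 CPM in bsl1 (SD, n = 2) and 11.7 ± 2.99 CPM in wild-type (SD, n = 3), so the bsl1 mean was 14.2% of the wild-type mean. Both bsl1 libraries lay far below the wild-type range, and the gap of 4.59 was wider than the 1.68-fold range of the wild-type libraries. On the log2 scale bsl1 over wild-type was -2.86 (standard error 0.315), and the edgeR adjusted p was 0.0793.

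Member 2, on chromosome 4, was the other gene with a gap above 2. It had 7.75 and 9.77 CPM in the bsl1 libraries, against 25.4, 38.5 and 29.2 CPM in wild-type replicates 1, 2 and 3. Its bsl1 mean was 28.2% of its wild-type mean, the gap was 2.60, and the log2 fold was -1.88 (standard error 0.226, edgeR adjusted p = 0.0874). Here wild-type replicate 1 was the lowest wild-type library, whereas for Sevir.1G044000 it was the highest. In bulk tissue, fewer cells of a type that expresses such a gene and less RNA of it per cell cannot be told apart.

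From member 3 on, the gaps were narrow. Member 3, on chromosome 3, was the least abundant, with 3.23 and 2.73 CPM in bsl1 and 8.31, 6.77 and 5.36 CPM in wild-type replicates 1, 2 and 3. Its bsl1 mean was 43.8% of the wild-type mean and its gap was 1.66. Member 4, on chromosome 1, had 19.7 and 15.3 CPM in bsl1 and 52.4, 32.9 and 31.9 CPM in the wild-type libraries. Wild-type replicate 1 was well above the others for this gene, and its gap of 1.62 was narrower than the 1.64-fold range of the wild-type libraries.

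Member 5, on chromosome 8, had 16.5 and 18.9 CPM in bsl1, against 28.7, 38.2 and 44.1 CPM in wild-type replicates 1, 2 and 3. Its wild-type libraries were 1.54-fold apart, about as far as its gap of 1.52. Member 7, on chromosome 9, differed between the bsl1 libraries, at 4.72 and 8.31 CPM, against 16.2, 14.8 and 12.1 CPM in wild-type. Its bsl1 libraries were 1.76-fold apart, the largest such ratio among the members.

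**Figure D3:**
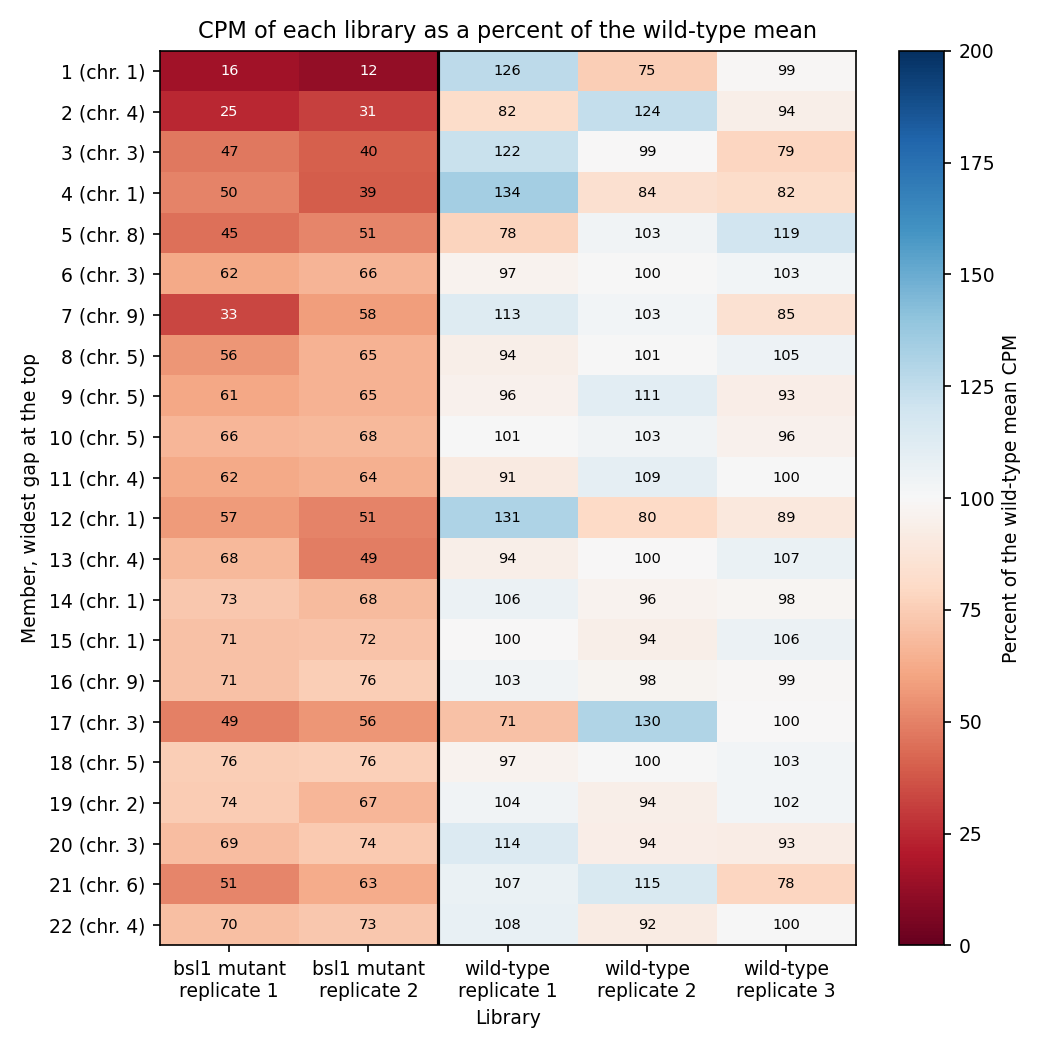
CPM of each library (columns, bsl1 left of the line and wild-type right of it) as a percent of the wild-type mean of that member (rows, widest gap at the top). The bsl1 cells of Sevir.1G044000 (member 1) are at 16.4% and 12.1%, and those of Sevir.5G324700 (member 18) are at 75.5% and 76.2%. The wild-type replicate 1 column is high in members 1, 3, 4 and 12 and low in members 2, 5 and 17.

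Several abundant members had tight libraries in both genotypes. Sevir.5G324700 (member 18), on chromosome 5, was the most abundant and had 239 and 241 CPM in bsl1, against 306, 318 and 326 CPM in wild-type replicates 1, 2 and 3. Its mean was 240 ± 1.62 CPM in bsl1 (SD, n = 2) and 317 ± 10.2 CPM in wild-type (SD, n = 3). The bsl1 mean was 75.9% of the wild-type mean, the mildest difference among the 22, but the gap of 1.27 exceeded the 1.01-fold range within bsl1 and the 1.07-fold range within wild-type. Its log2 fold was -0.46 (standard error 0.0871, edgeR adjusted p = 0.189).

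Member 10, also on chromosome 5, was next in abundance, with 70.7 and 72.0 CPM in bsl1 and 107, 110 and 102 CPM in wild-type. Its bsl1 mean was 67.1% of the wild-type mean. The libraries of each genotype were within 1.08-fold of each other, and the gap was 1.42. Member 8 (chromosome 5) had 29.1 and 33.9 CPM in bsl1 and 49.2, 52.6 and 54.8 CPM in wild-type. Member 9 (chromosome 5) had 32.8 and 34.9 CPM in bsl1 and 51.6, 59.6 and 50.2 CPM in wild-type. The 4 chromosome 5 members thus all had bsl1 libraries within 1.17-fold and wild-type libraries within 1.19-fold of each other. This was not particular to chromosome 5. In member 16, on chromosome 9, the bsl1 libraries were 1.07-fold and the wild-type libraries 1.06-fold apart.

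Member 11, on chromosome 4, had 28.5 and 29.3 CPM in bsl1 and 41.5, 49.7 and 45.6 CPM in wild-type replicates 1, 2 and 3. Member 6, on chromosome 3, had 6.69 and 7.10 CPM in bsl1 and 10.5, 10.8 and 11.1 CPM in wild-type, so its wild-type libraries differed by only 1.06-fold at a low level. Member 14, on chromosome 1, had 28.0 and 26.3 CPM in bsl1 and 40.7, 37.1 and 37.9 CPM in wild-type. In each of these genes the gap, at 1.42, 1.48 and 1.32, exceeded the range within either genotype.

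Members 16 and 19 were among the 10 most abundant and had some of the narrowest gaps. Member 16, on chromosome 9, had 28.1 and 30.1 CPM in bsl1 and 41.1, 38.7 and 39.3 CPM in wild-type. Member 19, on chromosome 2, had 47.1 and 42.1 CPM in bsl1 and 65.6, 59.4 and 64.9 CPM in wild-type. Their gaps were 1.29 and 1.26. The bsl1 means of the 7 members not described singly by abundance or gap (12, 13, 15, 17, 20, 21 and 22) were 52.5% to 71.6% of their wild-type means.

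Across all 22 members the bsl1 mean was a median of 61.7% of the wild-type mean, with a range of 14.2% to 75.9%. The wild-type mean was at least 2 times the bsl1 mean in 6 members, from 1.5 to 2 times it in 8 and under 1.5 times it in 8. Mean wild-type abundance ran from 6.81 to 317 CPM with a median of 30.7, against 36.3 for all expressed genes. Summed over the members, the libraries held 634 and 644 CPM in bsl1 and 981, 990 and 976 CPM in wild-type replicates 1, 2 and 3. Sevir.5G324700 made up 31.2% to 37.7% of each sum.

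The gap was wider than the range among wild-type libraries in 17 of the 22 members. In members 4, 5, 12, 17 and 21 it was not. In member 7 the gap of 1.46 was wider than the wild-type range but narrower than the 1.76-fold range within bsl1. Since the rule used the same values, this count describes the choice of members, and the share over expressed genes was not computed. Over the members the higher bsl1 library was a median of 1.12 times the lower, against 1.06 over all expressed genes. The highest wild-type library was a median of 1.19 times the lowest over the members, against 1.26 over expressed genes. A rule on the lowest wild-type library favours genes whose wild-type libraries lie close together, so this difference is no separate trait of the members. Bsl1 replicate 2 was the higher of the pair in 15 members and bsl1 replicate 1 in 7.

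The rule acts on the lowest wild-type library, so the place of each wild-type library depends on the choice of members. Members differed in where wild-type replicate 1 stood. It was the highest wild-type library in 10 members, the lowest in 8 and between the other two in 4. Over all expressed genes it was the highest in 36.4% and the lowest in 46.6%. Its log2 CPM minus the mean of wild-type replicates 2 and 3 ran from -0.68 in member 17 to 0.69 in member 4, with a median of 0.04 over the members and -0.05 over expressed genes. Members 1, 4 and 12, all on chromosome 1, had the values 0.55, 0.69 and 0.63, while the other chromosome 1 members, 14 and 15, had 0.12 and -0.0040. The next highest value was 0.47 in member 3, on chromosome 3. This grouping by chromosome was made after the values were seen. Members 12 and 17 here, and members 20 and 21 further on, are likewise singled out after their values were seen. Member 12 had 17.4 and 15.4 CPM in bsl1, against 39.6, 24.3 and 27.1 CPM in wild-type replicates 1, 2 and 3. Member 17 had 9.01 and 10.2 CPM in bsl1, against 12.9, 23.7 and 18.2 CPM in wild-type.

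Depth left the exact width of the narrow gaps uncertain. Members rested on 48 to 13689 fragments in a library. The gap compares the lowest wild-type with the highest bsl1 library. Its exact 95% interval (Clopper-Pearson on the split of fragments, counting error only) lay above 1 in all 22 members and above the 25% limit in 11. The rule had set these same values at least 25% apart, and the interval takes no account of that choice. These counts therefore describe depth and are no separate evidence, and they were not made over expressed genes. For Sevir.1G044000 the interval was 3.62 to 5.85, for Sevir.5G324700 it was 1.23 to 1.30, and for member 20 it was 1.02 to 1.55. Fragment numbers were whole in every library for 21 members (tolerance 0). Member 17 was the exception, so some of its fragments may be shared with other genes and its values are uncertain.

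The values just inside and outside the thresholds were close. The 3 members with the narrowest gaps, on chromosomes 4, 6 and 3, had gaps of 1.254, 1.255 and 1.258. The 3 expressed genes next below the limit, on chromosomes 2, 5 and 9, had 1.244, 1.244 and 1.238. The 3 members with the lowest wild-type minimum had 5.36, 7.13 and 7.74 CPM in that library. Of the genes with a sufficient gap, the 3 next below the 5 CPM limit had 4.11, 4.04 and 3.82 CPM. With a limit of 1 CPM, 43 genes met the rule.

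The comparison of genotypes over all genes used edgeR's quasi-likelihood test with Benjamini-Hochberg adjustment over 20498 genes, and all 22 members passed its filter on low counts. At an adjusted p under 0.05 it called 0 of the 22 members and 0 genes of the whole table lower in bsl1 (0% of expressed genes). The members' edgeR adjusted p-values ran from 0.0793 to 0.406. At an unadjusted p under 0.05 all 22 members were lower, against 224 (1.66%) of the 13526 expressed genes. DESeq2 called 20 members lower, against 48 (0.355%) of the expressed genes, and the exceptions were members 15 and 20. Without the filter on low counts edgeR called members 1 and 2, which were all of the expressed genes called lower in that fit (0.0148%). Since the rule used the same counts, these shares describe the choice of members and are no separate evidence. The members' median log2 fold was -0.75 in edgeR, and the median over all tested genes was -0.01.

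Without wild-type replicate 1, edgeR called 15 of the 22 members lower at an adjusted p under 0.05, against 232 (1.72%) of the expressed genes. All 15 were also among the DESeq2 calls. Sevir.1G044000 then had a log2 fold of -2.65 and an edgeR adjusted p of 0.0119, and Sevir.5G324700 a log2 fold of -0.48 and 0.0369. The 7 not called in that fit were members 3, 7, 13, 15, 20, 21 and 22. Leaving out any of the other libraries gave 0 calls in edgeR among the members and the expressed genes. At an unadjusted p under 0.05, edgeR without bsl1 replicate 1 had 17 of the 22 members lower, against 40 (0.296%) of the 13526 expressed genes. Without bsl1 replicate 2 it had 18 members, against 34 (0.251%) of the expressed genes. Without wild-type replicate 2 all 22 members were lower, against 123 (0.909%) of the expressed genes, and without wild-type replicate 3 all 22 were, against 265 (1.96%). With the replicate number as a block it called 0 members and 0 expressed genes. At an unadjusted p under 0.05 that fit had 21 members lower, against 240 (1.77%) of the expressed genes. All these fits share their counts with the rule, so the shares of members are no separate evidence.

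**Figure D4:**
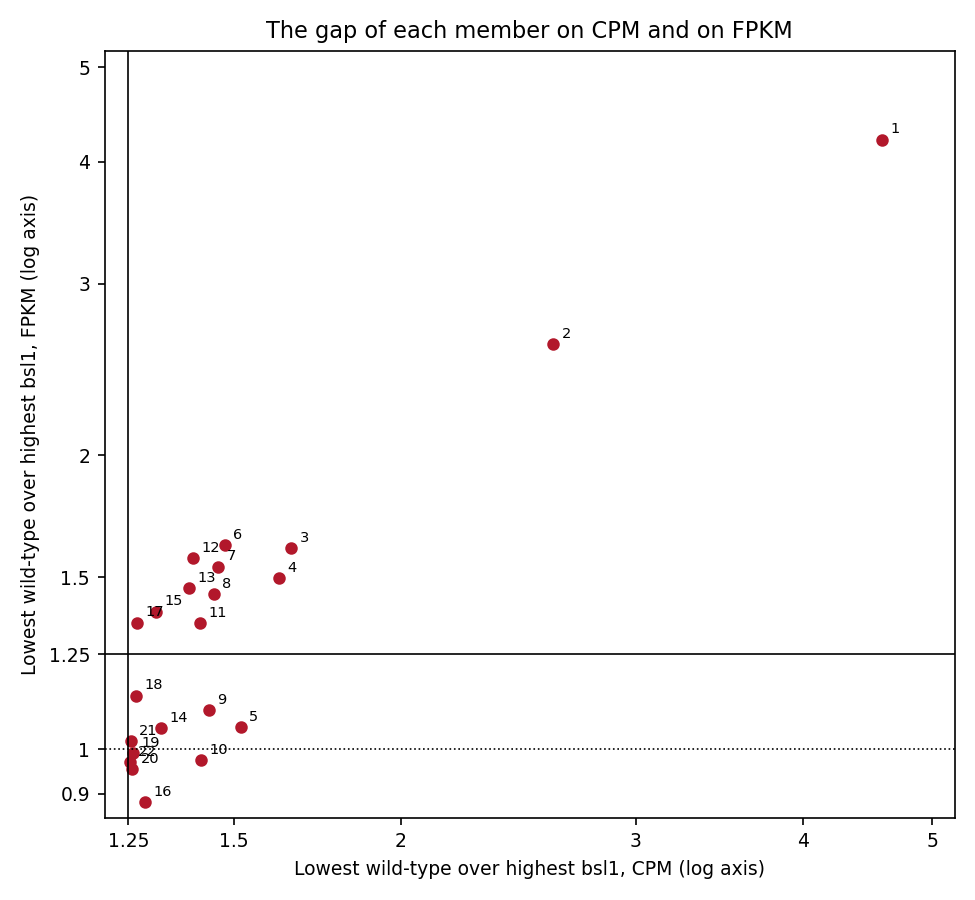
Gap of each member on CPM (horizontal, log axis) against its gap on the deposited FPKM values (vertical, log axis), with member numbers, solid lines at the 25% limit and a dotted line at 1. Of the members, 12 lie above the limit on both measures, and 5 (10, 16, 19, 20 and 22) lie under 1 on FPKM.

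The deposited FPKM values, which also take account of transcript length, gave a second view of the same libraries. Mean FPKM was lower in bsl1 for all 22 members. The genotypes did not overlap in 17 of the 22 members, against 744 (5.5%) of the expressed genes in this direction. The FPKM gap reached the 25% limit in 12 members, against 23 (0.17%) of the expressed genes. Because the members were chosen on the fragments of these same libraries, these shares are no separate evidence. Sevir.1G044000 had 1.91 and 1.37 FPKM in bsl1 and 14.8, 14.5 and 8.04 FPKM in wild-type replicates 1, 2 and 3, a gap of 4.22. Member 2 had 3.80 and 5.08 FPKM in bsl1 and 13.2, 23.2 and 17.0 FPKM in wild-type, a gap of 2.60. Sevir.5G324700 had 71.5 and 84.6 FPKM in bsl1 and 96.0, 119 and 103 FPKM in wild-type, a gap of 1.13.

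In 5 members the genotypes overlapped on FPKM. Member 10 had 13.8 and 22.6 FPKM in bsl1, against 22.04, 26.3 and 33.1 FPKM in wild-type, although its CPM values were nearly equal between the bsl1 libraries. Dividing its fragments by FPKM and by the library total gave an implied transcript length of 5128 and 3182 bases in bsl1 replicates 1 and 2 and of 4855, 4177 and 3082 bases in wild-type replicates 1, 2 and 3. Member 16 had 15.9 and 27.2 FPKM in bsl1, against 24.0, 26.8 and 34.3 FPKM in wild-type, with implied lengths of 1763 and 1106 bases in bsl1 and 1714, 1442 and 1147 bases in wild-type. In both genes the length was shortest in bsl1 replicate 2 and wild-type replicate 3, and FPKM was highest there within each genotype. Where CPM is nearly equal this follows from the calculation, as the implied length is computed from FPKM. The library term behind FPKM is not known, so the implied length may also hold differences in scaling. Over the 22 members the longest implied length was a median of 1.63 times the shortest, against 1.46 over expressed genes.

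Limma on log2(FPKM + 1) called 0 of the 22 members lower at an adjusted p under 0.05, and 0% of expressed genes. At an unadjusted p under 0.05 it had 10 members lower, against 23 (0.17%) of the 13517 expressed genes it tested. Its adjusted p-values for the members ran from 0.168 to 0.9999. The smallest was that of Sevir.1G044000, with a log2 fold on this scale of -2.31. The same libraries chose the members, so the share of members in this fit is no separate evidence either.

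The rule did not use position. Members lay on chromosomes 1 to 6, 8 and 9, with 5 on chromosome 1 (0.3003% of its 1665 expressed genes) and 4 each on chromosomes 3 (0.235%), 4 (0.364%) and 5 (0.203%). Chromosome 9, with 2587 expressed genes, had 2, and chromosomes 2, 6 and 8 had 1 each. Chromosome 7 had 0 of 1248. Members were not next to each other in identifier order, among all genes or among expressed genes. The closest were members 12 and 1 on chromosome 1, which were 40 identifiers or 15 expressed genes apart. Both had wild-type replicate 1 as their highest library.

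**Figure D5:**
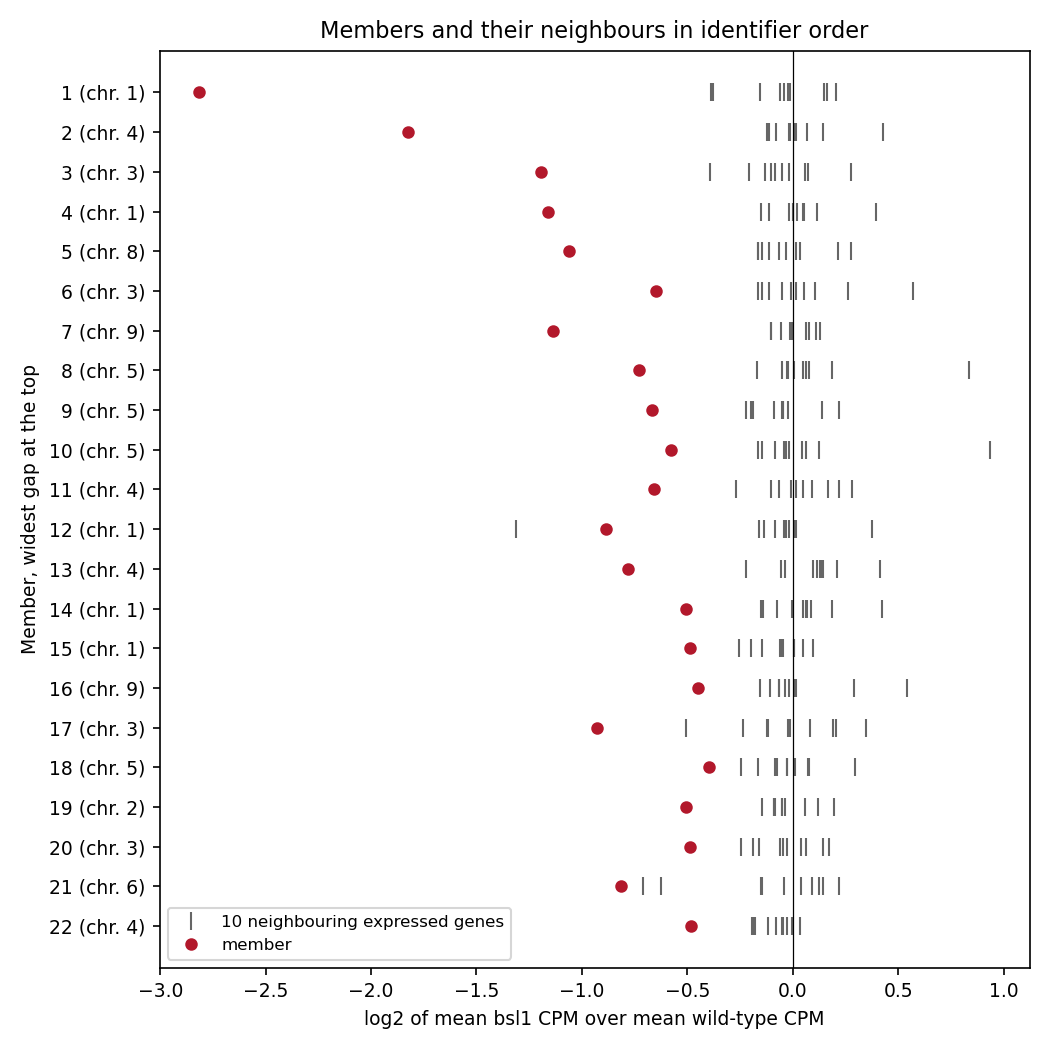
Log2 of mean bsl1 CPM over mean wild-type CPM for each member (red) and for the 5 expressed genes on each side of it in identifier order (grey ticks), 1 row per member with the widest gap at the top. Neighbours mostly lie near 0 and right of the member. The lowest are neighbours of members 12 (-1.31) and 21 (-0.71 and -0.63), and the highest are neighbours of members 10 (0.94) and 8 (0.84). For the neighbours at -1.31 and -0.71 the genotypes overlap.

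The genes around the members did not share their level of difference. For each member the 5 expressed genes on either side in identifier order were examined, 220 in all. The median log2 ratio of bsl1 over wild-type mean CPM within these groups of 10 ran from -0.07 to 0.12, while the members themselves were at -2.82 to -0.40. Of the 220 neighbours, 126 (57.3%) had a lower mean in bsl1, against 49.4% of expressed genes. In both bsl1 libraries, 23 neighbours were lower than in every wild-type library (10.5%, against 7.22% of expressed genes) and 22 were higher (10%, against 14.5% of expressed genes).

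A pair of neighbours stood out after the values were seen. The gene directly before member 21 on chromosome 6 had 9.40 and 11.4 CPM in bsl1, against 17.4, 18.2 and 12.4 CPM in wild-type replicates 1, 2 and 3. Member 21 itself had 7.81 and 9.54 CPM in bsl1, against 16.2, 17.5 and 12.0 CPM in wild-type. The neighbour's gap of 1.096 kept it out of the set, and its order of libraries was the same as that of member 21. Around member 12, the neighbour with a log2 ratio of -1.31 had 11.9 and 14.3 CPM in bsl1, against 12.2, 46.0 and 39.4 CPM in wild-type. Its wild-type replicate 1 lay at the bsl1 level, the reverse of member 12, and the genotypes overlapped.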

How the data were processed

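RNA-seq of 5 libraries was used, 2 bsl1 and 3 wild-type. For each gene and library the authors deposited a fragment number, taken here as an estimated count, beside an FPKM value. The submitters' processing notes name TopHat2 2.1.0 and Cuffdiff 2.2.1. The sources used here do not give the genome build, the strand setting or the terms behind FPKM, so fragments of overlapping or near-identical genes cannot be told apart.

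CPM was computed from the column sums. For tests, estimated counts were rounded, filtered with filterByExpr of edgeR 4.0.16 (minimum count 10), scaled with TMM and fitted with the quasi-likelihood test in R 4.3.3, with genotype as the only term. The standard error is the log2 coefficient divided by the root of its F value. Alternatives were DESeq2 1.42.0 and limma 3.58.1 on log2(FPKM + 1) with a minimum mean of 1 FPKM. Nothing beyond the pools defines the replicates, so p-values measure the spread between pools. The members and lists were chosen with earlier results of these data known. The rule for named genes allowed 2 identifiers, those of the widest gap and the highest wild-type CPM. It allowed single values for the 10 widest gaps and the 10 most abundant members, 15 genes in all.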

Additional observations from a re-analysis of the deposited data

How the results depend on the processing

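The set is sensitive to its limits and libraries. A gap of 1.1, 1.5 or 2 gave 124, 5 or 2 genes, a floor of 1 or 20 CPM gave 43 or 13, and TMM or median-ratio scaling gave 39 or 42. With both the gap and the floor of 5 set on FPKM, 17 genes met the rule. Of the 12 members that kept the gap on FPKM, 8 were among these 17, and members 3, 6, 13 and 15 were under the floor. Leaving out 1 library gave 38 to 316 genes, as fewer libraries had to be separated, with the highest count without wild-type replicate 1. Genes called lower numbered 0 in edgeR, 55 in DESeq2, 2 with library totals only and 4 without the filter on low counts. Among the members these were 0, 20, 0 and 2. Leaving out 1 library gave 0 to 254 genes and 0 to 15 members, again highest without wild-type replicate 1. The median log2 fold of the members, -0.75, was -0.70 with library totals only, -0.81 in limma on log2(FPKM + 0.1) and -0.76 to -0.70 without 1 library. With 1 bsl1 library left, the fit takes its spread from the wild-type libraries. On FPKM, wild-type replicate 1 was a median of -0.20 from wild-type replicates 2 and 3 over the members, against 0.04 on CPM. The cause was not tested.

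The sign of the members' log2 folds is fixed by their choice and is no sign of stability. Over 13 alternatives the log2 fold was -3.12 to -2.31 for Sevir.1G044000 (called in 3, adjusted p 2.64e-14 to 0.65) and -0.48 to -0.40 for Sevir.5G324700 (called in 2, adjusted p 1.42e-05 to 0.9999). The replicate block in edgeR gave 0 calls among members and a median log2 fold of -0.76. At an unadjusted p under 0.05 it had 21 members lower, against 240 (1.77%) of the expressed genes. The same counts chose the members, so this share is no sign of stability either. No label says that the numbers mark pairs. Deviations of same-numbered libraries from their genotype mean correlated at 0.16 and -0.03. With 2 bsl1 libraries the bsl1 deviations are opposite by construction, so these values cannot decide whether the numbers mark pairs. The range among wild-type libraries on TMM-scaled CPM was added after seeing the data and moved by less than its spread over members.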
